A study of Mus musculus with 25 samples.

Results

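Hsd11b1, Cdkn1a, Mt1 and Mt3, 4 genes linked to glucocorticoid action and to metal-binding stress proteins, were followed in the mouse hypothalamus after tumor cell injection. They were picked by name among the 8726 genes of the probe annotation, and each had 1 probe on every array design. Male BALB/c mice of 8 weeks had received CT-26.WT cells under the skin, 1000000 cells in 300 µl of PBS, or the same volume of PBS alone, and were killed by decapitation 18, 72 or 192 h later. CT-26.WT is a cloned line of colon carcinoma, itself of BALB/c origin. The tissue was the hypothalamus and not the tumor, and the PBS mice carried no tumor cells. Each in-house printed 2-colour array set RNA of a tumor group directly against RNA of the PBS group of the same time. The arrays used here number 19 of the 25 labelled. They make up 5 replicates at 18 h, 2 replicates at 72 h and 4 replicates at 192 h. Of these 11 replicates, 4 were polyA RNA, on arrays of 1 dye orientation, and 7 were total RNA, on a dye-swapped pair of arrays.

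Glucocorticoids are the end product of the stress axis, in which hypothalamic peptides drive the pituitary and the adrenal cortex. They act on the brain through nuclear receptors, and the hypothalamus is one of the sites of their negative feedback. Hsd11b1 encodes the dehydrogenase that regenerates active corticosterone from its inactive keto form inside cells, and so sets how much hormone reaches the receptor. Cdkn1a encodes a cyclin-dependent kinase inhibitor that p53 and glucocorticoids can both induce. Metallothioneins are small cysteine-rich proteins that bind zinc and copper. Mt1 is expressed in many tissues and is induced by zinc, by glucocorticoids and by inflammation. Mt3 is the metallothionein of the brain, was first described as an inhibitor of neuronal growth, and responds little to metals.

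The proximal promoters of the metallothionein pair are shown because they carry the best known regulatory letters of the family, the core of the metal response element. The sequences are from RefSeq, build GRCm38.p6, and hold 250 bases before and 50 after the annotated start. Capitals mark matches to TGCGCNC or TGCACNC on either strand.
Mt1, chr8:94178839-94179138, plus strand: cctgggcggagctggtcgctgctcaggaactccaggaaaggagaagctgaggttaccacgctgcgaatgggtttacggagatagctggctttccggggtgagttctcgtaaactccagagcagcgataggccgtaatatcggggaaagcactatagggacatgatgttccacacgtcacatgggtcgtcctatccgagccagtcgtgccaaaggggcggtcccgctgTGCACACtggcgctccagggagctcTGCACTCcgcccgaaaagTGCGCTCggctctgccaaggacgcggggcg
Mt3, chr8:94152357-94152656, plus strand: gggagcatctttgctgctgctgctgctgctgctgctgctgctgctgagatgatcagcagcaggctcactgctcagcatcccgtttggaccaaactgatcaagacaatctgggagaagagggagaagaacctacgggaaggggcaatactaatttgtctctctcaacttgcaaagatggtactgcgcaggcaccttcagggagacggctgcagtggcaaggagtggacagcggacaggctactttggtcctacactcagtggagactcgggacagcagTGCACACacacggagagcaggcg
The Mt1 window held 3 matches of either core and the Mt3 window 1. At least 1 match was present in 25.7% of 32851 promoter windows of this length, and at least 3 in 1.97%. The Hsd11b1 window held 1 match, and neither of the 2 annotated Cdkn1a windows held any. The half-site of the glucocorticoid receptor, AGAACA, was on neither strand of any member's window, and was present in 19.0% of all windows.

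All ratios below are log2 of tumor over PBS, so that 0 means equal signal. Their direction is likely rather than settled. The files name the channels only A and B, and the dyes were assigned from their order in the labels. Nothing in the labels ties a replicate to a single animal or to pooled tissue. The p-values therefore measure the differences among these RNA samples, part of which may be technical. Of the 19 arrays, each measured between 3056 and 9839 of 10080 spots in both channels. The median ratio of background-subtracted signal to local background ran from 0.932 to 2.33 per array. The number of arrays limits the precision. Replicate 2 of 18 h stood apart by the spread of its values. Its log2 ratios had an SD of 0.90 over genes, against 0.21 to 0.56 in the other replicates. It was a single polyA array with 3306 spots measured. Replicate 1 of 192 h was also a single polyA array, with 3056. Of 8 markers of hypothalamic peptide neurons, Avp, Oxt and Pmch were at median brightness percentiles of 97.1, 97.9 and 97.6 among measured genes. Cartpt, Trh, Gal and Hcrt were at 80.2, 71.7, 63.7 and 62.2, and Nkx2-1 at 37.5.

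Across the fit of all genes, none passed an adjusted p under 0.05 in limma at any time. At 18 h, 0 of 5064 genes were called (0%), with 274 genes, 5.41%, at an unadjusted p under 0.05. At 72 h it was 0 of 1930 (0%), with 33 genes or 1.71% unadjusted, and at 192 h 0 of 2797 (0%), with 119 genes or 4.25%. The members' values are therefore given as measured levels with their spread.

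Both channels of the Mt1 spot reached the local background on nearly every array, and those of Hsd11b1 and Cdkn1a on few. For Mt3 they did so on 7 of the 14 arrays that measured it. Background had already been subtracted from the signal, so a channel reached it where the remaining signal was at least as large. Mt1 was measured on 18 of 19 arrays, with a median percentile of 92.9 among measured spots, from 31.9 to 98.0. Both of its channels reached the local background on 16 of the 18 arrays. Hsd11b1 was measured on 16 arrays at a median percentile of 46.0, and both channels reached the background on 4 of them. Cdkn1a was measured on 14 arrays at a median percentile of 26.7, and both channels reached the background on 5. Mt3 was measured on 14 arrays at a median percentile of 36.0, from 6.87 to 92.3. Its brightest arrays were those of 192 h replicates 2 and 3, where 3 of 4 had percentiles of 92.1, 91.0 and 92.3. The 3 scans of an array differed in the ratio by a median of 0.05 for Hsd11b1, 0.42 for Cdkn1a, 0.12 for Mt1 and 0.20 for Mt3. On 6 of the 16 Hsd11b1 arrays a single scan gave the value, which has a range of 0 by construction.

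The brightness of each probe in the tumor and in the PBS channel was then ordered over the 6 conditions, as log2 intensity with the median spot of the array and channel at 0. Hsd11b1 ran from 0.44 ± 0.40 (SD, n = 4) in tumor at 18 h down to -1.13 ± 0.86 (SD, n = 4) in tumor at 192 h, with the PBS levels of these times at 0.06 ± 0.27 and -0.96 ± 0.93. Cdkn1a ran from -0.30 ± 0.09 (SD, n = 2) in tumor at 72 h to -0.79 ± 0.54 (SD, n = 4) in PBS at 18 h. In Cdkn1a the tumor level was above the PBS level of the same time at all 3 times. Mt1 ran from 2.24 ± 1.28 (SD, n = 3) in PBS at 192 h to 1.27 ± 0.75 (SD, n = 2) in PBS at 72 h. Mt3 ran from 0.79 ± 1.47 (SD, n = 4) in PBS at 192 h to -1.19 ± 0.78 (SD, n = 2) in PBS at 72 h. For none of the 4 genes did a pair of neighbours in this order differ by more than the larger of their SDs. These levels differ between times by array and RNA type as well as by mouse, and were not compared between probes.

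**Figure D1:**
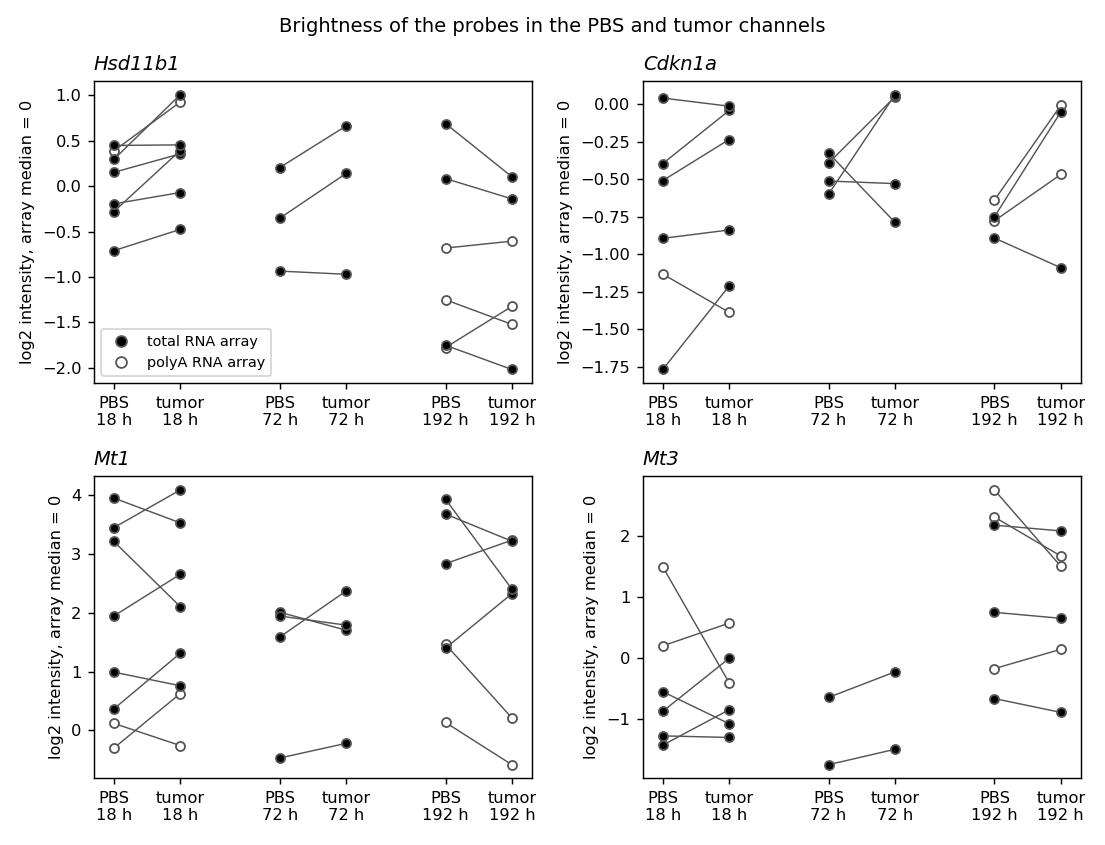
Brightness of the 4 probes per array, as log2 intensity relative to the median spot of that array and channel (y axis), in the PBS and the tumor channel at 18, 72 and 192 h (x axis). Each line joins both channels of 1 array, filled points are total RNA and open points polyA RNA, and the Mt1 points of total RNA reach 4.09 while those of polyA RNA stay at 1.46 or below.

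The metallothionein pair differed by the kind of RNA hybridised. The mean level of Mt1 over both channels was 2.22 ± 1.13 (SD, n = 7) in total RNA and 0.13 ± 0.19 (SD, n = 3) in polyA RNA. The lowest total RNA replicate, 0.76, was above the highest polyA replicate, 0.31. Of 1134 genes with the same numbers of values, 34 or 3% were split this way. Mt3 lay the other way on average, at 0.75 ± 0.91 (SD, n = 4) in polyA RNA and -0.54 ± 1.03 (SD, n = 6) in total RNA, and its groups overlapped. PolyA RNA was also hybridised on an array design of its own, so RNA type and design cannot be told apart.

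Hsd11b1 lay above 0 in every replicate that measured it at 18 h, at an average of 1.41-fold over PBS, and close to 0 at 192 h. At 18 h its log2 ratios were 1.04 in replicate 2, 0.38 in replicate 3, 0.33 in replicate 4 and 0.26 in replicate 5, and replicate 1 gave no value. Replicate 2 was far above the other 3, which lay within a narrow band. Its value came from 1 array and 1 scan of that array. Among 1944 genes with exactly 4 values at 18 h, 6.33% had all of them above 0, so the count alone is not a result about Hsd11b1. The limma estimate was 0.50 ± 0.15 (SE, n = 4), with a 95% interval of 0.15 to 0.84 and an unadjusted p of 0.00939. It did not pass, with an adjusted p of 0.886, and it ranked 39 among the 5064 genes by p. Without 18 h replicate 2 the estimate was 0.33, and with a loess curve per print block it was 0.24. When both channels had to reach the local background, replicate 2 was at 0.53 and the others gave no value.

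The single arrays of Hsd11b1 at 18 h were mostly above 0. Replicate 3 gave 0.33 with tumor RNA in Cy5 and 0.44 with it in Cy3. Replicate 4 gave 0.71 and -0.04, and replicate 5 gave 0.44 and 0.08. The array with tumor in Cy5 was the higher one in 2 of 5 pairs over all times, so the orientation did not sort the values. In the authors' deposited table the sign of the array value matched on 12 of 16 arrays. Both 18 h arrays of replicate 3 were below 0 there, at -0.057 and -0.014. The 18 h arrays of replicates 2, 4 and 5 were above 0 in that table.

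At 72 h the only replicate value of Hsd11b1 was 0.25, in replicate 3, from arrays at -0.02 and 0.52. Replicate 4 gave 0.60 on 1 array and none on its dye-swapped partner. At 192 h the values were 0.36 in replicate 1, -0.09 in replicate 2 and -0.03 in replicate 4. Replicate 1 is a polyA array with the tumor in Cy5, and the others lay within 0.1 of 0. The limma estimate at 192 h was 0.08 ± 0.17 (SE, n = 3), with an adjusted p of 0.999. Without 192 h replicate 1 it was -0.26. That estimate was adjusted by the dye term and lay below both replicate values left. The 192 h estimate minus the 18 h estimate was -0.41 ± 0.23 (SE), with a 95% interval of -0.93 to 0.10 and an adjusted p of 0.827 in limma. In that contrast 0 of 2502 genes were called (0%), with 147 genes or 5.88% at an unadjusted p under 0.05. A change of Hsd11b1 between these times was therefore not detectable.

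**Figure D2:**
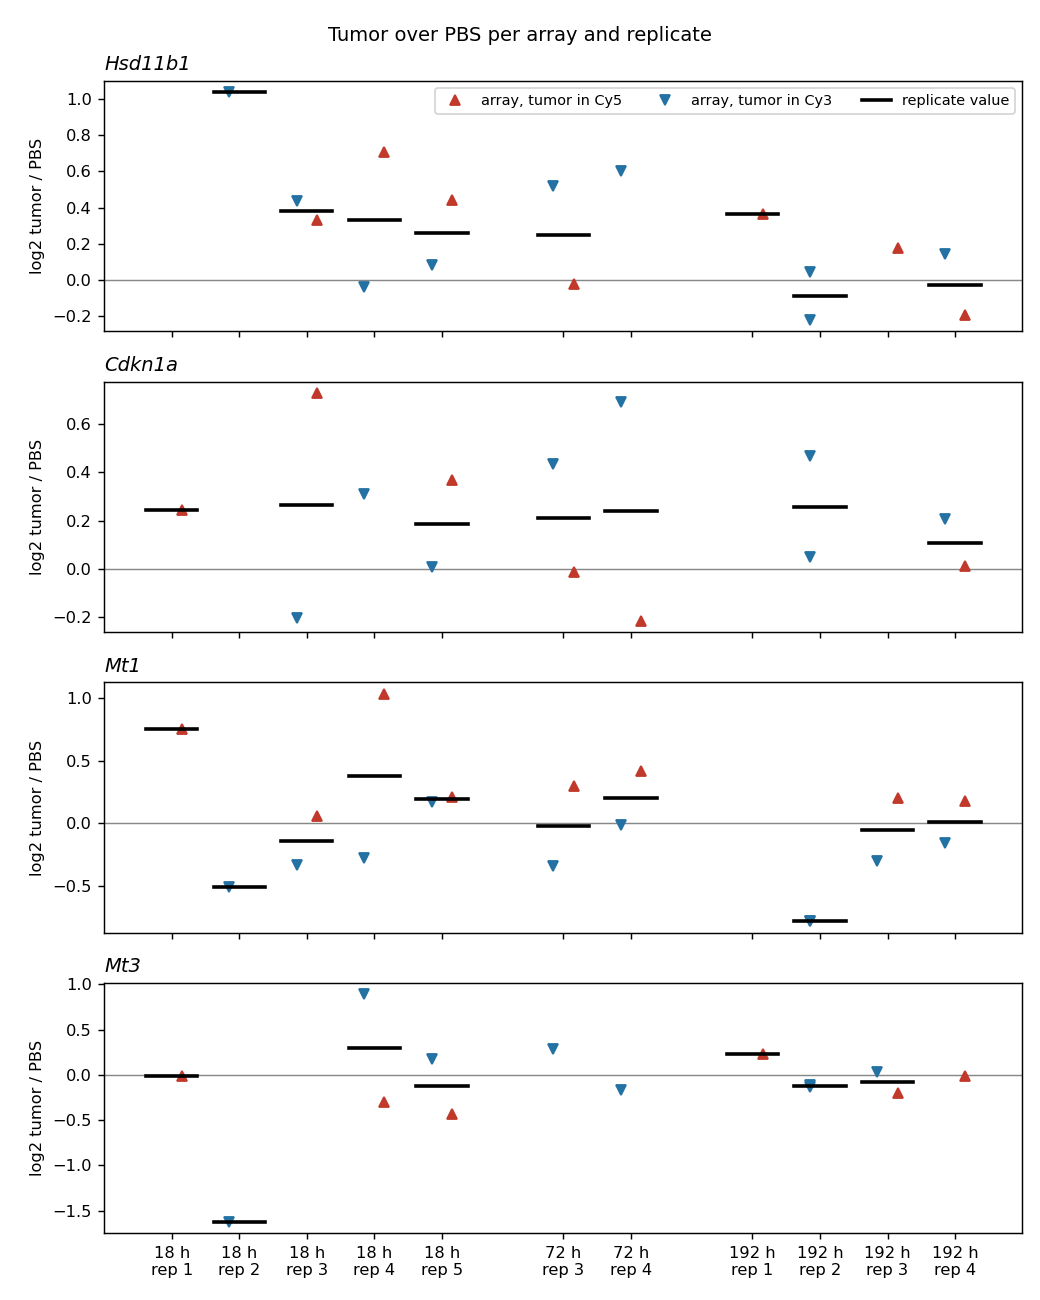
Log2 ratio of tumor over PBS (y axis) for the 4 genes in each replicate at 18, 72 and 192 h (x axis). Triangles are single arrays, red with tumor RNA in Cy5 and blue with it in Cy3, and black bars are replicate values, which for total RNA need both orientations. Hsd11b1 is highest in 18 h replicate 2 (1.04), all 7 bars of Cdkn1a lie between 0.11 and 0.26, and every red triangle of Mt1 lies above 0.

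Cdkn1a was slightly above 0 in all 7 replicates with a replicate value, at a similar level at each time. At 18 h the log2 ratios were 0.25, 0.26 and 0.19 in replicates 1, 3 and 5. Replicate 4 of 18 h gave 0.31 on 1 array and none on its dye-swapped partner, and so has no replicate value. At 72 h the replicate values were 0.21 and 0.24 in replicates 3 and 4, and at 192 h they were 0.26 and 0.11 in replicates 2 and 4. All 3 values at 18 h were above 0, as they were in 13.5% of the 2303 genes with exactly 3 values there. The mean over the 7 was 0.22, with an SD of 0.054. Among 921 genes with exactly 7 replicate values, 4 or 0.434% had all of them above 0, namely Cdkn1a, Dr1, Napg and Rasgrp1. No other of these 921 genes had as small an SD (0.109% at or below it, counting Cdkn1a itself), and the median SD was 0.27. These shares were computed after the values had been seen, and serve as a description.

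The closeness of the replicate values was not shared by the arrays behind them. The 14 array values of Cdkn1a ran from -0.22 to 0.73, with an SD of 0.30. In 3 of 5 dye-swapped pairs, both arrays of the same RNA had opposite signs, and the pairs were apart by 0.20 to 0.93. Replicate 3 of 18 h gave 0.73 in one orientation and -0.20 in the other, and replicate 4 of 72 h gave -0.22 and 0.69. The orientation that read higher changed from pair to pair, with the tumor in Cy5 higher in 2 of 5. The authors' deposited table held the same sign on 9 of 14 arrays. In that table not every replicate with a value averaged above 0. The arrays of 18 h replicate 5 were at -0.065 and 0.060, and those of 72 h replicate 4 at -0.14 and 0.059. The other replicates with a value averaged above 0 there.

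The limma estimate for Cdkn1a was 0.25 ± 0.13 (SE, n = 3) at 18 h, with a 95% interval of -0.05 to 0.55 and an adjusted p of 0.886. At 72 h it was 0.22 ± 0.14 (SE, n = 2), with an interval of -0.10 to 0.55 and an adjusted p of 0.992. The mean at 192 h was 0.18 ± 0.10 (SD, n = 2), too few values for the test. The difference between 72 h and 18 h was -0.03 ± 0.20 (SE), with an adjusted p of 0.998 in limma. In that contrast 0 of 1642 genes were called (0%), and 27 genes or 1.64% had an unadjusted p under 0.05. When both channels had to reach the local background, the 18 h estimate was 0.04. It rested on 0.11, 0.15 and -0.07 in replicates 1, 3 and 5. No 72 h or 192 h replicate value was then left.

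Mt1 did not move in one direction with the tumor, and the sign of its array ratios went with the dye. The replicate values at 18 h were 0.76, -0.51, -0.14, 0.38 and 0.19 in replicates 1 to 5. At 72 h they were -0.02 and 0.20 in replicates 3 and 4, and at 192 h -0.78, -0.05 and 0.01 in replicates 2, 3 and 4. The values lay on both sides of 0, in 5 of 10 replicates above it. The limma estimates were 0.14 ± 0.09 (SE, n = 5) at 18 h, 0.09 ± 0.15 (SE, n = 2) at 72 h and -0.05 ± 0.13 (SE, n = 3) at 192 h, with adjusted p of 0.890, 0.992 and 0.999. The plain mean at 192 h, which is also the estimate without the dye term, was -0.27 ± 0.44 (SD, n = 3). Mt1 was the single member tested on average over the 3 times, at 0.06 ± 0.07 (SE, n = 10) and a 95% interval of -0.10 to 0.22. Of 1215 genes tested on average 0 were called (0%), with 22 genes or 1.81% at an unadjusted p under 0.05.

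The arrays split by orientation. With tumor RNA in Cy5, Mt1 was above 0 on 8 of 8 arrays, from 0.06 to 1.04 with a median of 0.26. With tumor RNA in Cy3 it was above 0 on 1 of 10 arrays, from -0.78 to 0.17 with a median of -0.32. The single exception was the Cy3 array of 18 h replicate 5. In 7 of 7 dye-swapped pairs, the array with tumor in Cy5 was higher, by 0.52 ± 0.39 (SD, n = 7), from 0.04 to 1.31. Of 617 genes measured in all 7 pairs, 31 or 5.02% showed this in each pair. The direction thus came back in every pair, while the sign of the tumor effect itself turned in 6 of 7.

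The dye term of the limma model rests on the polyA replicates, which are not part of these pairs. For Mt1 it was 0.66 ± 0.13 (SE), with an adjusted p of 0.0129, and 212 of 5198 genes or 4.08% passed there. In a fit on the arrays, with the replicate as a random block, the term was 0.35 ± 0.08 (SE, 18 arrays) at an adjusted p of 0.0233, where 97 of 7292 genes or 1.33% passed. Both tests were added after the array values had been seen. The term did not pass for the other members, which were at -0.05 (Cdkn1a), -0.03 (Hsd11b1) and 0.49 (Mt3) in the replicate fit. A loess curve per print block gave 0.41 for the Mt1 term, which then missed the threshold (adjusted p = 0.0586 in limma). Leaving out 18 h replicate 1 or 2 gave 0.70 and 0.68, with adjusted p of 0.0609 and 0.0529 in limma.

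**Figure D3:**
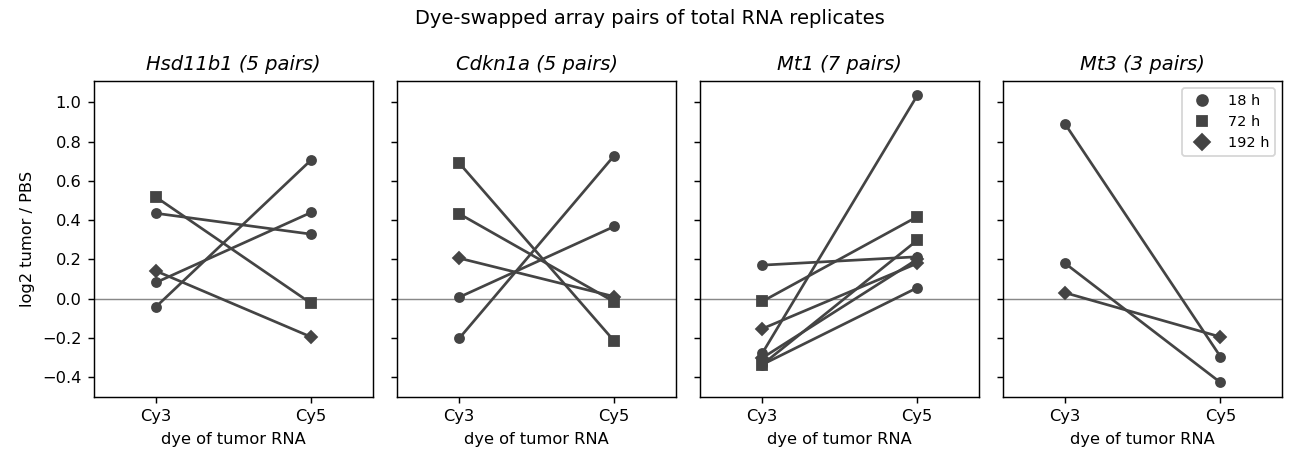
Log2 ratio of tumor over PBS (y axis) in the dye-swapped array pairs of the total RNA replicates, with tumor RNA in Cy3 on the left and in Cy5 on the right of each panel (x axis). Each line is 1 replicate and the symbol gives its time. All 7 lines of Mt1 rise towards Cy5, all 3 lines of Mt3 fall, and those of Hsd11b1 and Cdkn1a cross, with 2 of 5 rising in each.

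Mt3 rested on few values, and one of them set its average. At 18 h the log2 ratios were -0.01, -1.62, 0.30 and -0.12 in replicates 1, 2, 4 and 5. The lowest came again from replicate 2, from 1 scan of 1 array, and the others lay on both sides of 0. The limma estimate was -0.37 ± 0.21 (SE, n = 4), with a 95% interval of -0.82 to 0.09 and an adjusted p of 0.886. Without 18 h replicate 2 it was 0.02, so the sign rested on that replicate. At 72 h there was no replicate value, and the arrays that measured Mt3 gave 0.29 in replicate 3 and -0.17 in replicate 4, both with tumor in Cy3. At 192 h the values were 0.23, -0.12 and -0.08 in replicates 1, 2 and 3, and the estimate was 0.01 ± 0.24 (SE, n = 3). Without 192 h replicate 2 it was -0.28. That estimate was adjusted by the dye term and lay below both replicate values left.

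The dye-swapped pairs of Mt3 lay opposite to those of Mt1. In 3 of 3 pairs the array with tumor in Cy5 was lower, by 0.22, 0.61 and 1.18, and each pair held opposite signs. Across the 6 replicates that measured both metallothioneins, the ratios of Mt1 and Mt3 had the same sign in 4. In 18 h replicate 2 both were low, at -0.51 and -1.62. Within a replicate, both genes share arrays and dye orientation, so this is a description. The estimate at 192 h minus that at 18 h was 0.37 ± 0.31 (SE) for Mt3 and -0.19 ± 0.16 (SE) for Mt1, both with an adjusted p of 0.855 in limma. For Mt1, 192 h minus 72 h was -0.14 ± 0.20 (SE), with an adjusted p of 0.998 in limma. There 0 of 1303 genes were called (0%), with 37 genes or 2.84% at an unadjusted p under 0.05.

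**Figure D4:**
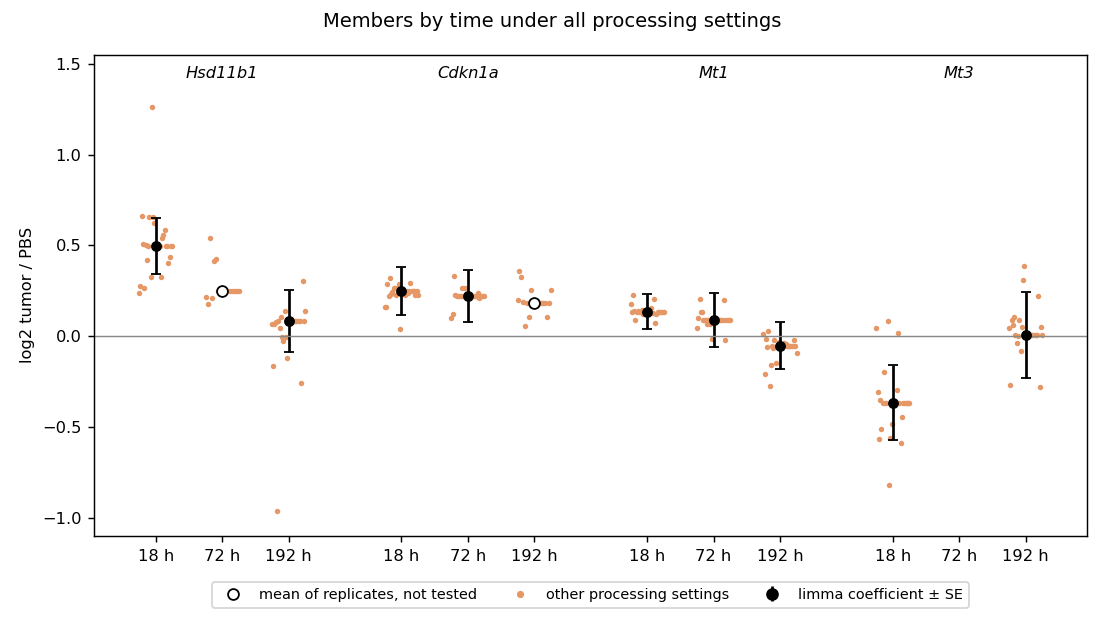
Log2 ratio of tumor over PBS (y axis) of the 4 genes by time (x axis). Black points are limma estimates with their SE, open points are means of too few replicates to test, and orange points are the same value under the other processing settings, without the authors' table, which is on another scale. Hsd11b1 at 18 h and Cdkn1a stay above 0 under every setting shown, whereas Mt3 at 18 h runs from -0.82 to 0.09.

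In the wider stress pathways, no gene passed the test. In all 5 lists, 0 genes were called at any time in limma. The glucocorticoid-responsive list had 17 of 30 genes on the array, of which 9, 4 and 7 could be tested at 18, 72 and 192 h. Of these, 3 of 9, 2 of 4 and 4 of 7 were above 0, with medians of -0.03, 0.0011 and 0.0080. Over all genes tested, the medians were -0.0026, 0.013 and -0.026, and 49.3%, 52.6% and 41.9% lay above 0. Dusp1, a MAP kinase phosphatase induced by glucocorticoids, was at -0.49 and -0.37 in the 72 h replicates. Its estimate at 72 h was -0.43 ± 0.14 (SE, n = 2), with an adjusted p of 0.992, and at 18 h it was -0.03. Rhob, a small GTPase, was at -0.35 ± 0.16 (SE, n = 3) at 18 h, and the transcription factor Klf9 at -0.17 ± 0.13 (SE, n = 4).

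Of the genes that carry the glucocorticoid signal, 8 of 22 were on the array, and 6, 3 and 5 were tested. Of these, 3, 1 and 3 lay above 0, with medians of 0.03, -0.02 and 0.02. The chaperone Hsp90aa1, which holds the receptor ready for hormone, was at 0.09, 0.12 and 0.19 at 18, 72 and 192 h. The receptor coactivator Ncoa1 was at 0.10 at 18 h and 0.08 at 192 h, and Ncoa2 at -0.08, -0.19 and -0.15 at 18, 72 and 192 h. Hsd11b2, which inactivates corticosterone and so opposes Hsd11b1, was at -0.08 ± 0.12 (SE, n = 4) at 18 h and 0.02 ± 0.12 (SE, n = 4) at 192 h. The receptor genes Nr3c1 and Nr3c2 were not named in the probe annotation used here, nor was Mt2.

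Of the stress axis peptides and receptors, 11 of 18 were on the array, and 4 of 9, 3 of 7 and 2 of 8 tested genes were above 0. Their medians were -0.03, -0.04 and -0.09. At 192 h Avpr1b, the pituitary-type vasopressin receptor, was at -0.45 ± 0.17 (SE, n = 3), and Mc2r, the corticotropin receptor, at 0.35 ± 0.14 (SE, n = 3), each with an adjusted p of 0.999. Trh, the thyrotropin-releasing hormone precursor, was at -0.18 ± 0.13 (SE, n = 3) at 18 h.

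In the zinc and metallothionein list, 14 of 25 genes were on the array, and 4 of 7, 2 of 4 and 0 of 5 tested genes were above 0, with medians of 0.07, 0.0012 and -0.03. The thioredoxin reductase Txnrd1 was at -0.33 ± 0.13 (SE, n = 4) at 18 h and -0.10 ± 0.13 (SE, n = 4) at 192 h. The zinc importer Slc39a3 was at -0.22 ± 0.13 (SE, n = 4) at 18 h. The zinc exporter Slc30a5 was at 0.18 ± 0.17 (SE, n = 4) at 18 h. Mt4, the metallothionein of squamous epithelia, had a value in 2 replicates only, 0.08 at 18 h and 0.14 at 192 h. Beside Cdkn1a, the list of p53 targets and kinase inhibitors held 15 of 26 genes on the array, and 2 of 5, 2 of 3 and 1 of 3 tested genes were above 0, with medians of -0.03, 0.02 and -0.09. Ccng1, a p53 target, was at 0.20 ± 0.15, -0.11 ± 0.17 and 0.23 ± 0.12 (SE) at 18, 72 and 192 h. Gadd45a was at -0.05 at 18 h, and Phlda3 at -0.09 at 192 h.

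**Figure D5:**
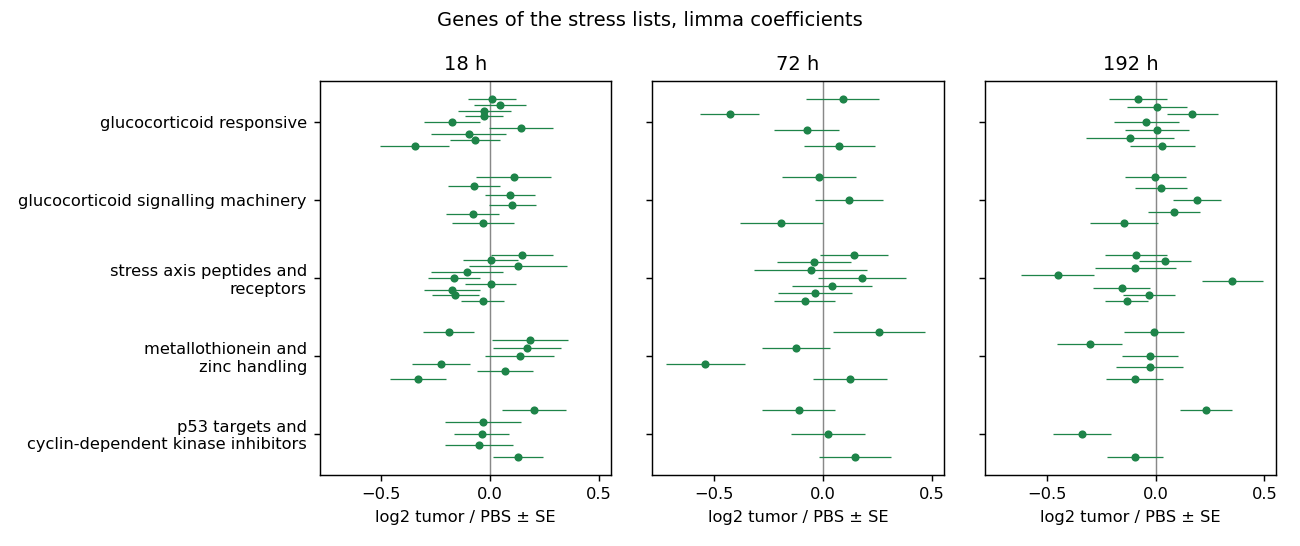
Limma estimates of log2 tumor over PBS with their SE (x axis) for the tested genes of the 5 stress lists (y axis) at 18, 72 and 192 h. The points lie on both sides of 0 in every list at 18 h, and the lowest single value is that of Slc39a13 at 72 h (-0.54).

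The genes whose replicate ratios were most like those of a member were found by Pearson correlation over the replicates in which the member had a value. For Hsd11b1, over 8 replicates and 440 candidate genes, Fscn1 (r = 0.98), Gpr27 (0.93) and Lrpap1 (0.92) were highest, and Wbscr25 (-0.97), Taf15 (-0.96) and Gtf2a1 (-0.91) lowest. For Cdkn1a, over 7 replicates and 975 candidates, Dmrt1 (0.95), Nbdy (0.95) and Vps26c (0.94) were highest, and Naa38 (-0.90), Rab10 (-0.89) and Gatd3a (-0.87) lowest. For Mt1, over 10 replicates and 306 candidates, Sox3 (0.89), Cfl1 (0.86) and 1700037H04Rik (0.85) were highest, and Acp2 (-0.91), Kcng4 (-0.89) and Fam110a (-0.79) lowest. For Mt3, over 7 replicates and 590 candidates, Polr3f (0.98), Mrm1 (0.98) and Ddx39b (0.98) were highest, and Enc1 (-0.99), Insrr (-0.98) and 9230110K08Rik (-0.97) lowest. Within a replicate, all genes share the arrays, dye orientation and RNA type. Fscn1, for example, was at 1.30 in 18 h replicate 2 and between -0.72 and 0.30 in the other 7 replicates that measured Hsd11b1. For Mt3, Polr3f was at -4.61 in 18 h replicate 2 and between -0.17 and 0.54 in the other 6 replicates that measured Mt3. Enc1 was at 3.05 there and between -0.35 and 0.12 in the others. Acp2 was at 3.10 in 18 h replicate 2 and -2.02 in replicate 1, which have opposite orientations.

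Between the other members the signs were mixed. Hsd11b1 and Mt1 had the same sign in 3 of the 7 replicates that measured both, and Cdkn1a and Mt1 in 4 of 7. Hsd11b1 and Mt3 lay farthest apart in 18 h replicate 2, at 1.04 and -1.62.

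Markers of the cell types in the tissue were set beside these values. At 18 h, 2 of 5 astrocyte, 4 of 9 neuronal, 3 of 6 microglial and 2 of 3 vascular markers tested were above 0. For peptide neurons it was 4 of 8, for oligodendrocytes 2 of 4 and for ependyma and choroid plexus 1 of 4. Pituitary and blood cells had 2 of 2 each, with medians of 0.22 and 0.23. In no group was a marker called in limma at 18 h. In 18 h replicate 2, where Hsd11b1 was highest and Mt3 lowest, the mean ratio was -0.55 over 4 astrocyte markers, 0.64 over 3 microglial markers and 0.64 over 2 vascular markers. In the other 18 h replicates these means ran from -0.003 to 0.29, from -0.51 to 0.05 and from -0.18 to 0.32. Of the other marker groups in 18 h replicate 2, peptide neurons were at -0.50, neurons at -0.24 and pituitary at 0.69. Ependyma and choroid plexus were at 0.66 on 1 marker, blood cells at 0.13 on 1, and oligodendrocytes at 0.02. At 192 h, 1 of 5 astrocyte, 0 of 3 oligodendrocyte and 0 of 2 vascular markers tested were above 0. For neuronal markers it was 2 of 7, for peptide neurons 3 of 6 and for blood cells 2 of 3. Microglia had 0 of 1, pituitary 0 of 2, and ependyma and choroid plexus 1 of 3. Over all genes tested, 41.9% were above 0 at 192 h and 49.3% at 18 h. In 192 h replicate 2, where Mt1 was lowest, the mean ratio was -0.37 over 5 astrocyte, -0.48 over 5 oligodendrocyte and -0.34 over 9 neuronal markers. It was -0.16 over 8 peptide neuron, 0.14 over 6 microglial and 0.05 over 5 vascular markers. Ependyma and choroid plexus were at 0.21, pituitary at 0.03 and blood cells at 0.23. The part of these markers in the members' values was not tested. In such bulk tissue, fewer cells of a type and less RNA per cell cannot be told apart.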

How the data were processed

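Each array came with 3 scanner files. Per the file headers, these held spot intensity in 2 channels with local background subtracted by the authors' software, and that background. Further scanner settings were not given in the sources used here. In the authors' deposited table, each spot's value was a score, a centred log ratio of unstated log base. Over spots, that score correlated positively with the ratio used here on 19 of 19 arrays, at 0.59 to 0.86. It served as an alternative.

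The 3 files were read as scans of 1 slide. Per scan, log2 of channel B over A, where both were above 0 (34.3% of intensities were 0), was normalized by loess (span 0.3, 4 iterations). Scans were averaged, the sign was set to tumor over PBS from the labelled dyes, and arrays were averaged per replicate. A total RNA replicate needed both orientations. The 6 arrays not used here were left out by the rule that chose the genes. Spots were named through the platform annotation, with several probes of a gene represented by the brightest. Accessions matched RefSeq names (GRCm38.p6) for 8988 or 8980 of 10080 spots. Promoter windows came from the RefSeq table of that build, and all 4 members matched.

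One limma fit (limma 3.58.1, R 4.3.3) over 11 replicates estimated each time and the dye orientation. Genes needed 3, 2 and 3 values at 18, 72 and 192 h. P-values were adjusted by Benjamini-Hochberg over all genes tested, with a threshold of 0.05. Where a gene has 1 polyA value alone, the dye term absorbs it and it adds nothing to the estimates. The fit was tested on simulated data. Named genes are the 4 members, the 3 measured genes of each list with the largest absolute mean ratio over the times, the 3 most and 3 least alike genes of each member, and Mt2, Mt4, Nr3c1 and Nr3c2. The markers of hypothalamic peptide neurons on the array are named as well. Hsd11b2, Slc39a13, Dr1, Napg and Rasgrp1 were named or singled out after their values were seen. The members and lists were chosen with earlier results of these data known. Alternatives were other normalizations, scans, filters, covariates and replicates left out.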

Additional observations from a re-analysis of the deposited data

Results flagged for a closer look

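Of 28 groups of 4 to 10 replicates that were checked for a single distant value, 2 held one, where chance alone flags about 1 group in 20. At 18 h, Hsd11b1 was at 1.04 in replicate 2, and the gap to the next replicate was 0.844 of the range over 4 values. Also at 18 h, the zinc exporter Slc30a5 was at 0.63 in replicate 1, against -0.0046 to 0.09 in replicates 3 to 5, a gap of 0.852 of the range. Both distant values came from a single polyA array.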

How the results depend on the processing

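No member passed an adjusted p of 0.05 in limma for tumor over PBS under any alternative, and the lowest adjusted p was 0.258, for Mt3 at 18 h with polyA RNA alone. The estimates kept their sign in all 28 alternatives for Hsd11b1 at 18 h (0.11 to 1.26) and for Cdkn1a at 18 h (0.03 to 0.32), in 27 for Cdkn1a at 72 h (0.04 to 0.33) and in 29 for Mt1 at 18 h (0.08 to 0.22). Both lowest values of Hsd11b1 and Cdkn1a at 18 h are on the scale of the authors' table. Part of these alternatives left an estimate exactly as it was and could not turn its sign, so the counts overstate the agreement. Cdkn1a at 72 h, for example, stayed at 0.22 with any 18 h or 192 h replicate left out.

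The sign turned elsewhere. Hsd11b1 at 192 h was -0.16 with median centring, -0.017 in the authors' table and -0.027 with total RNA only. It was -0.12 with the replicate block, and -0.0025 with RNA type or platform as covariate. In the scan with most spots it was -0.96, from too few values for the test. Leaving out 1 replicate gave -0.26 to 0.30. Both -0.96 and -0.26 were adjusted by the dye term and lay below every scan value of the 192 h arrays. Mt1 at 72 h was -0.0017 in the authors' table, -0.018 where both channels reached the background, and -0.019 to 0.20 with 1 replicate left out, the lowest without 72 h replicate 4. Mt1 at 192 h was 0.015 with loess per print block, 0.0083 in the authors' table and 0.027 in the scan with most spots, but -0.27 with no dye term, -0.21 with median centring and -0.16 in the array fit. Mt3 at 18 h was 0.046 with loess per print block, 0.087 with total RNA only, and -0.59 to 0.019 with 1 replicate left out. Mt3 at 192 h was -0.27 with median centring, -0.026 in the authors' table, -0.036 in the array fit and -0.082 with total RNA only. It was 0.31 with platform as covariate and 0.39 with the replicate block. With 1 replicate left out it ran from -0.28 to 0.22, and -0.28 lay below every 192 h replicate value. The untested Cdkn1a mean at 192 h was 0.36 with median centring, 0.031 in the authors' table, 0.33 after normexp and 0.057 in the scan with most spots. Median centring also moved the median of all genes at 192 h to -0.14, with 22.8% above 0. The cause was not tested.

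The Mt1 dye term lost its call with loess per print block (0.41), with polyA RNA only (0.63, adjusted p = 0.550 in limma) and where both channels reached the background (0.65, adjusted p = 0.0865 in limma). It ran from 0.63 to 0.70 with 1 replicate left out, and over all alternatives its adjusted p ran from 0.00572 to 0.550 in limma. Counts of called genes, all 0 in the fit reported, became 50 of 1930 at 18 h with polyA RNA only. That fit holds 2 replicates at 18 h, each a single array, in opposite dye orientations. One of them is replicate 2, which stood apart by its spread. At 192 h the count became 1 with either RNA type alone, of 1944 genes tested with total RNA and 2616 with polyA RNA. When a single replicate value at a time was enough, more genes were tested, and a call could rest on that value. The counts were then 1 at 72 h, 31 at 192 h, 1 on average and 1 for 72 h minus 18 h. They were 15 for 192 h minus 18 h and 6 for 192 h minus 72 h. With 1 replicate left out they ran from 0 to 1 at 72 h and for 72 h minus 18 h (1 without 72 h replicate 4) and from 0 to 3 at 192 h (3 without 18 h replicate 2).

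Of 8 pairs of replicates with the same number at different times, 3 had a correlation of deviations over 0.1, so the numbers were not taken as pairs. The polyA pairs, which also share dye orientation, were highest, at 0.55 for replicate 1 and 0.39 for replicate 2, and the total RNA pairs ran from -0.06 to 0.12. The replicate block changed no call, and Hsd11b1 at 18 h was 0.62 with it. Signal that does not reach the local background in both channels limits Hsd11b1, Cdkn1a and, on part of its arrays, Mt3. Mt3 at 72 h had no value, so no alternative was given.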
